A study of Homo sapiens with 18 samples.

Results

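The zinc finger genes of chromosome 19 are described here: the protein-coding genes of that chromosome whose symbol is ZNF followed by digits and an optional letter, as listed by RefSeq on GRCh38.p14. There were 246 of them among 19974 protein-coding genes on chromosomes 1 to 22 and X, beside 1205 other protein-coding genes on chromosome 19. ChIP-seq, which maps by sequencing the DNA bound by a protein, was applied to HCT116 INTS11-AID cells. HCT116 is an established line from a human colon cancer, and here INTS11 is fused to a tag that lets auxin (IAA) direct its destruction. INTS11 is the endonuclease of Integrator, a complex that cleaves nascent transcripts of RNA polymerase II (Pol II). Antibodies were directed against Pol II as a whole and against 2 phosphorylated forms of its C-terminal repeats, tyrosine 1 (Tyr1P) and serine 2 (Ser2P). Each antibody had 2 numbered Control and 2 numbered IAA libraries, a further 4 unnumbered Pol II libraries were titled Control, IAA, EGF and IAA+EGF, and there were 2 inputs without antibody. All groups carry the degron, and the labels do not say whether the line is a single clone. One protocol text covers all samples. It lists 14 h in medium free of serum, IAA at 500 µM (1 h), EGF at 100 ng/µl (30 min) and interferon beta at 2000 U (1 h), so treatments were taken from the titles.

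Most zinc finger proteins encoded on chromosome 19 join tandem zinc fingers, which bind DNA, to a KRAB domain, which recruits the corepressor TRIM28. TRIM28 in turn brings SETDB1, which methylates histone H3 at lysine 9, and HP1 proteins, and this machinery is best known for silencing retroelements. The genes arose by tandem duplication and lie in clusters along the chromosome, often with many neighbours of the same kind. On a transcribed gene, Tyr1P is known mainly near the start and Ser2P rises towards the 3′ end as elongation proceeds.

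A deposited peak list per library was available, with 15270 to 99001 peaks after removal of those overlapping an input peak, 986 to 4571 of them on chromosome 19. Depth estimated from the lists was 2.95 to 13.6 fragments per kb, lowest in Pol II Control replicate 1. The Ser2P controls stood at the extremes of their group, with 13.6 in replicate 1 and 3.30 in replicate 2, against 9.32 and 10.5 with IAA. Ser2P Control replicate 2 had the shortest list, and Ser2P values are therefore also given without it. Neither input had a peak at the ends, in the interior or within 5 kb of any zinc finger gene. Of 7 colon epithelium markers, EPCAM, KRT8, CDH1 and CDX2 had a peak at a gene end in all 16 immunoprecipitated libraries, KRT18 in 15, CDH17 in 2 and VIL1 in 0. Among markers of other tissues, PTPRC, COL3A1, DCN, ALB and GFAP had 0, while SYT1 had 16, APOA1 15, RBFOX3 13, COL1A1 5, HBB 2 and CD3E 1. The degron acts on protein, so no value checks the loss of INTS11. A peak list over many cells cannot tell fewer cells with polymerase at a gene from less polymerase per cell.

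Promoter sequence was available for 216 of the 246 genes, as 268 windows of 300 bases, 250 before and 50 after a RefSeq start (GRCh38.p14). The windows shown were chosen because they hold the ETS-type motif CCGGAAGT, searched on both strands and printed in capitals, at genes with and without peaks. ZNF160 (chr19:53103373-53103672, minus strand), ZNF264 (chr19:57191250-57191549, plus strand) and ZNF780A (chr19:40090894-40091193, minus strand) had a peak at a gene end in all 16 libraries. ZNF606 (chr19:58002771-58003070, minus strand), ZNF773 (chr19:57499688-57499987, plus strand) and ZNF829 (chr19:36916242-36916541, minus strand) had no peak at their ends, inside them or within 5 kb in any library. A match is a description of letters and not evidence of binding.
ZNF160: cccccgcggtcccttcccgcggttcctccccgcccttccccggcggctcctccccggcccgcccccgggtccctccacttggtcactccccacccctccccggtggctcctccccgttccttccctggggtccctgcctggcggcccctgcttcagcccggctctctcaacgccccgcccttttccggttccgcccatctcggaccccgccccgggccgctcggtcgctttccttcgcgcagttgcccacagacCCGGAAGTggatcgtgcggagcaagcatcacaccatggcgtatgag
ZNF264: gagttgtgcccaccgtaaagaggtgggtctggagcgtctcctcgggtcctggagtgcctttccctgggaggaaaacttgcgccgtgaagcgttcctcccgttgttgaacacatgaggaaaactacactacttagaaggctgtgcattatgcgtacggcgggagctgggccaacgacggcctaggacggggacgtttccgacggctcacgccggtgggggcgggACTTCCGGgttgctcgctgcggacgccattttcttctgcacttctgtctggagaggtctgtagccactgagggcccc
ZNF780A: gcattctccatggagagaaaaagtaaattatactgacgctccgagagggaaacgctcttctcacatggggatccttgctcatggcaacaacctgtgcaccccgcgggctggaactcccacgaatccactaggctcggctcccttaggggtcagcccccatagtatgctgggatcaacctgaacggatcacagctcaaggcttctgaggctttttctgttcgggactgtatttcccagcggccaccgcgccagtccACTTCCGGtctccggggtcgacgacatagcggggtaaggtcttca
ZNF606: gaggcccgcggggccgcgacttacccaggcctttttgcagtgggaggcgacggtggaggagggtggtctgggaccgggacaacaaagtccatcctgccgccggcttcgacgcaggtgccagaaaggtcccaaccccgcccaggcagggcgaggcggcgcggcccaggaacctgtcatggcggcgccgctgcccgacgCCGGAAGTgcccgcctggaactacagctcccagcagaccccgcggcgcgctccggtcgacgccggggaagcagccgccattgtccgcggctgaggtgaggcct
ZNF773: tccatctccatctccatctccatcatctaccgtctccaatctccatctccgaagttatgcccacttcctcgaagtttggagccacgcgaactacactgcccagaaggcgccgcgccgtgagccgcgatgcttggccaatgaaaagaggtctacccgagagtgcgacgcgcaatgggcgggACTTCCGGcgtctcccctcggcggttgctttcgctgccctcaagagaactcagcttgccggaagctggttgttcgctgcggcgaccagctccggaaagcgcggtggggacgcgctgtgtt
ZNF829: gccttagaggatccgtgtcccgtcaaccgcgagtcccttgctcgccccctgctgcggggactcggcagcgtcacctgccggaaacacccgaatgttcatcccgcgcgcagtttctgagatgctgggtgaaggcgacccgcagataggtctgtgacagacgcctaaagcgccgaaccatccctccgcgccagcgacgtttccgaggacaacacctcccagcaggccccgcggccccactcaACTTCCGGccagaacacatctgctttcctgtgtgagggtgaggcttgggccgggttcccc

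CCGGAAGT was found in 48 of the 268 windows, 17.9%, against 4.30% of the windows of other chromosome 19 genes, 5.35% over all protein-coding genes and 4.14% over all 35116 promoters of the table. Its share was 17.5% at zinc finger genes with an end peak in all 16 libraries and 12.5% at those with an end peak in 0, so both kinds of gene carried it. It was 31.0% at those with an end peak in 13 to 15 libraries. For other chromosome 19 genes the shares with an end peak in all 16 and in 0 were 5.95% and 1.31%. For all protein-coding genes they were 9.32% and 1.08%. GGGCGG, the core of a GC box, stood in 64.9% of the zinc finger windows and 65.9% of those of other chromosome 19 genes. Over all protein-coding genes it stood in 56.3%, and over all promoters in 45.0%. CCAAT stood in 134 of the 268 zinc finger windows and in 35.6% of those of other chromosome 19 genes. Over all protein-coding genes it stood in 34.6%, and over all promoters in 34.6%. TATAAA stood in 2.61%, 7.11%, 9.46% and 11.5% in the same order. All motifs were searched on both strands, and matches of different motifs may share bases. The number of CG dinucleotides separated zinc finger genes with and without end peaks less than it separated other genes. Zinc finger genes with an end peak in all 16 libraries had a median of 22 CG per window, and those with an end peak in none had 18.5. For other chromosome 19 genes the medians were 27 and 7, and for all protein-coding genes 27 and 6. Paralogous windows share sequence by descent, so they are not independent, and no test was made.

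**Figure D1:**
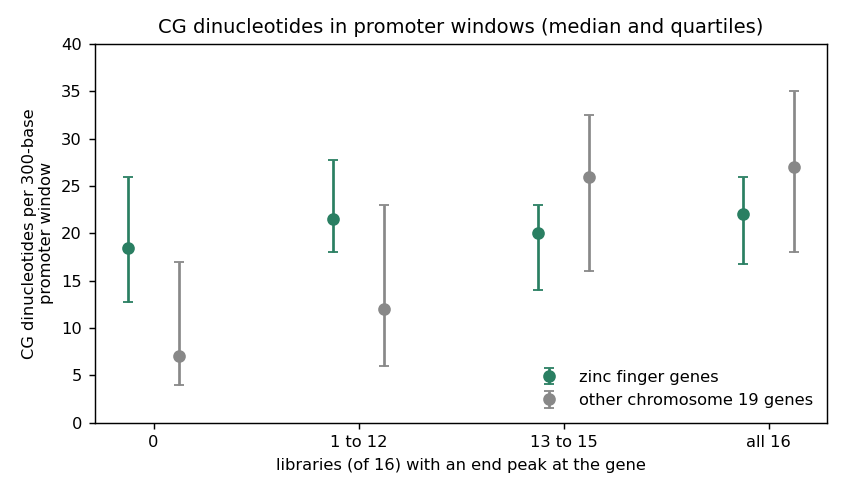
CG dinucleotides per 300-base promoter window (vertical axis) by the number of libraries with an end peak at the gene (horizontal axis), as medians with quartiles, for zinc finger genes and other chromosome 19 genes. Zinc finger genes without end peaks have a median of 18.5, far nearer to the 22 of those with end peaks in all 16 libraries than the 7 and 27 of other genes.

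Peaks at gene ends were either nearly always present or nearly always absent. An end peak means a summit within 1 kb of either annotated end. Starts over 1 kb inside the span count as interior, so a gene without an end peak can have a peak at a start. In all 16 libraries 78 zinc finger genes had one (31.7%, against 29.7% of other chromosome 19 genes and 37.5% of all genes). A further 44 had one in 13 to 15 libraries, and 35 of these lacked it in Ser2P Control replicate 2. Only 25 had one in 1 to 12 libraries. No end peak was called in any library at 99 genes, 40.2%, against 21.2% of other chromosome 19 genes and 28.1% of all genes. Among genes with no other gene end within 2 kb, these were 74 of 180 zinc finger genes (41.1%), 178 of 541 other chromosome 19 genes (32.9%) and 37.8% of all genes. Of the 99, 81 also had no peak inside or within 5 kb. Median length was 21736 bp for genes with end peaks in all 16 and 28802 bp for genes with none.

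**Figure D2:**
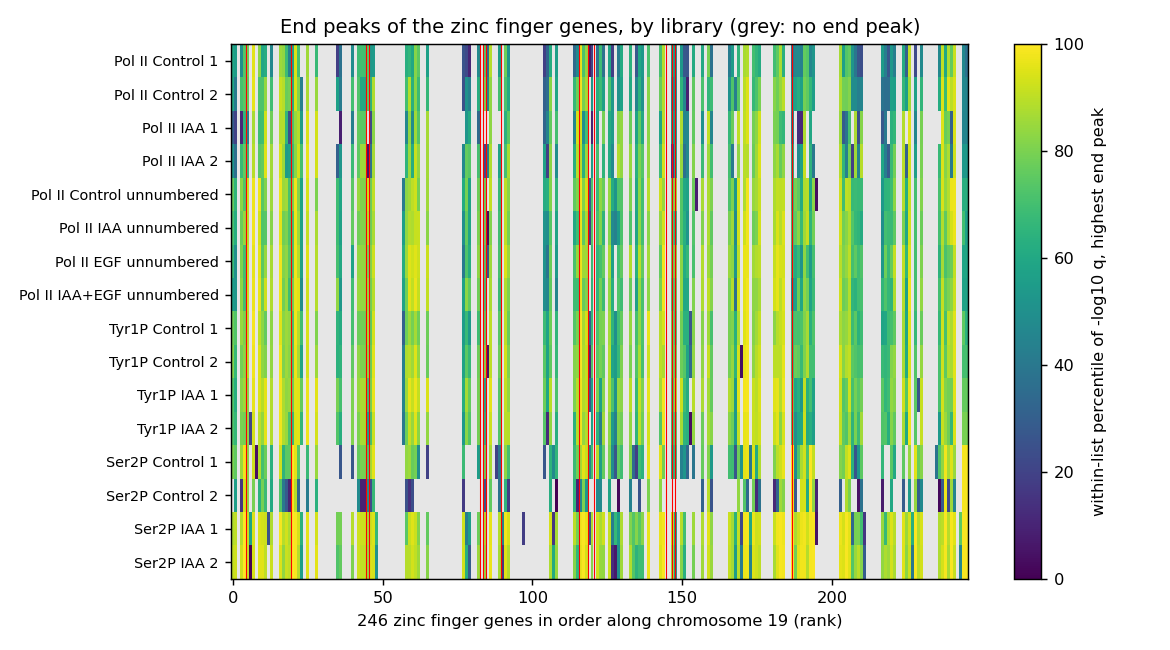
Percentile of the highest-ranked end peak within its own list (colour, 0 to 100) for the 246 zinc finger genes in chromosome order (horizontal axis) and 16 libraries (vertical axis), with grey for no end peak and red lines between groups of neighbours over 1 Mb apart. The same genes are coloured or grey in most libraries, with 78 coloured in all 16 and 99 grey in all 16.

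The strength of a peak was read as its percentile within its own list, by the deposited −log10 q, where 100 is the top. Lists differ in length, so percentiles from 2 lists show by themselves no change. ZNF546 (chr19:39997060-40021038) had the highest median, 97.4. Its Control percentiles were 96.7 and 98.4 for Pol II, 99.3 and 99.1 for Tyr1P, and 86.9 and 46.8 for Ser2P. With IAA they were 93.6 and 90.1, 97.9 and 97.9, and 97.9 and 96.7. The low value is that of Ser2P Control replicate 2. ZNF468 (97.4), ZNF627 (96.4), ZNF414 (95.8), ZNF121 (95.7) and ZNF28 (95.5) followed by median percentile. Among the genes without a peak of any kind the longest were ZNF420 (122467 bp), a KRAB protein known to bind p53, ZNF568 (81601 bp), whose mouse relative represses a placental Igf2 transcript, ZNF676 (81216 bp) and ZNF331 (77035 bp), an imprinted gene. At ZNF420 the nearest summit to an end lay 42189 to 87940 bp away over the 16 libraries.

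Members known from work on retroelements and imprinting fell on both sides. ZNF91, which represses SVA elements, had an end peak in 14 libraries. Its percentiles were 22.1 and 50.9 in the Pol II controls and 52.5 and 76.2 with IAA. They were 67.3 and 74.8 in the Tyr1P controls and 86.7 and 82.8 with IAA. With percentiles taken anew within lists of equal length per antibody they were 1.01 and 24.7 against 52.5 and 69.0 for Pol II, and 58.3 and 68.7 against 85.6 and 82.8 for Tyr1P. Neither way did the numbered Control and IAA values overlap at ZNF91. In the full unnumbered Pol II lists its percentiles were 79.7 in Control, 75.9 in IAA, 72.5 in EGF and 82.8 in IAA+EGF. Ser2P end peaks of ZNF91 were called in neither control and in both IAA libraries, but in 0 of the 4 lists once limited to the same length. ZNF93, which represses young LINE-1 elements, had no peak at its ends, inside it or within 5 kb in any library, and neither had ZNF43, ZNF257, ZNF331 or ZNF382. ZNF274, which binds the 3′ ends of zinc finger genes and recruits SETDB1, had an end peak in 15 libraries and lacked it in Pol II IAA replicate 1. ZNF180 had an end peak in all 16 libraries, ZNF175 in 15 and ZNF134 in 13.

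Compared with other genes of chromosome 19, zinc finger genes had fewer peaks inside them and around them. An interior peak has its summit more than 1 kb inside both ends, and an outside peak lies over 1 kb and up to 5 kb beyond an end. In the Pol II controls, interior peaks were at 11.4% ± 0.575 (SD, n = 2) of zinc finger genes and 24.98% ± 2.36 (SD, n = 2) of other genes. For Tyr1P the Control shares were 15.2% ± 0.862 (SD, n = 2) and 35.7% ± 1.12 (SD, n = 2). For Ser2P they were 16.9% ± 10.6 (SD, n = 2) and 28.2% ± 11.3 (SD, n = 2). Zinc finger genes had the lower share in each of these 6 controls and in each of the 6 IAA libraries. Over the 12 numbered libraries the gap in interior share averaged -15.4 percentage points, and that in outside share -21.0 points. Peaks covered less of their length as well, by -1.497 points, with 0.688% ± 0.0356 (SD, n = 2) of their bases in the Pol II controls against 1.44% ± 0.163 (SD, n = 2). Each of these 3 gaps gave p = 0.000488 in a two-sided exact permutation test swapping the gene sets within libraries, the smallest it allows (adjusted p = 0.00391 over 24 tests). These p-values set the gap against the spread between libraries, not between genes. They count the 12 libraries as independent, and the labels do not say whether antibodies shared chromatin. The labels do not say whether replicates were separate cultures, so the spread may be technical. In the Pol II controls outside peaks were at 12.2% ± 0.575 (SD, n = 2) of zinc finger genes and 31.2% ± 2.99 (SD, n = 2) of other chromosome 19 genes. Over all protein-coding genes the share was 17.1% ± 2.12 (SD, n = 2), nearer to that of zinc finger genes. An outside peak can belong to a neighbouring gene.

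The share with an end peak was 50.6% ± 0.287 (SD, n = 2) for zinc finger genes and 58.7% ± 2.41 (SD, n = 2) for other genes in the Pol II controls. In the Tyr1P controls it was 52.4% ± 0.575 (SD, n = 2) and 64.1% ± 0.939 (SD, n = 2), and in the Ser2P controls 43.7% ± 10.6 (SD, n = 2) and 53.3% ± 12.6 (SD, n = 2). The gap over 12 libraries was -9.77 points (exact permutation p = 0.000977, adjusted p = 0.00586), with zinc finger genes lower in 11 of 12. It did not hold among genes with no other gene end within 2 kb, which were 180 of the 246 zinc finger genes (73.2%) and 541 of the 1205 others (44.9%). There the gap was 1.93 points in the opposite direction (exact permutation p = 0.240). Where the neighbouring gene is close, an end peak can belong to either gene. The interior gap among the same genes was -13.4 points (exact permutation p = 0.000488).

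**Figure D3:**
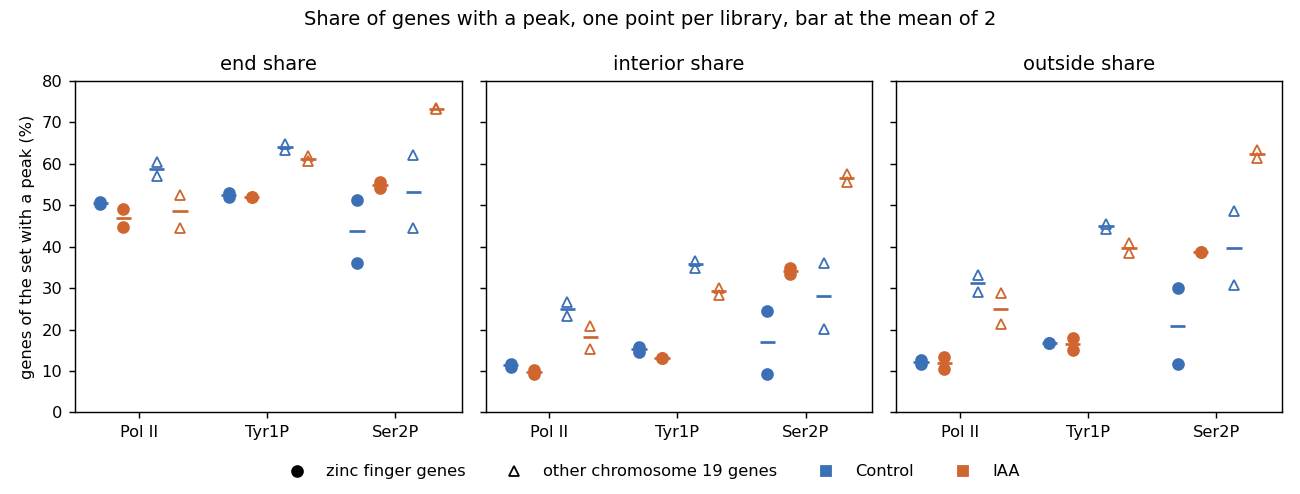
Percent of genes with an end, interior or outside peak (vertical axes) by antibody (horizontal axis), 1 point per numbered library and a bar at the mean, for zinc finger genes (filled circles) and other chromosome 19 genes (open triangles) in Control (blue) and IAA (orange). Zinc finger genes lie lower in interior and outside share in all 12 libraries, and within each gene set the Ser2P shares with IAA are the highest.

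Many of the Pol II summits inside zinc finger genes lay near annotated starts. In the numbered Pol II controls there were 34.5 ± 3.54 (SD, n = 2) interior summits, of which 24.5 ± 2.12 (SD, n = 2) were within 1 kb of a RefSeq start of the same gene. There 18.8% ± 0.119 (SD, n = 2) were near no start of their own or any other gene, against 71.5% ± 2.29 (SD, n = 2) in other chromosome 19 genes. In the unnumbered Pol II libraries the share near no start was 34.9% in Control, 34.1% in IAA, 20.6% in EGF and 33.3% in IAA+EGF. Of the interior Ser2P summits in Control, 70.7% in replicate 1 and 35.3% in replicate 2 were near no start. With IAA the share was 81.4% ± 0.987 (SD, n = 2), of 207 and 192 summits. Strands and starts were known for the 216 genes with a promoter window, so a start of the others could not be counted.

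The clusters along the chromosome differed in how many of their genes had called peaks. An absent call does not show absent polymerase, and the part of read mapping between duplicated genes was not tested. Neighbouring zinc finger genes were grouped wherever no gap exceeded 1 Mb, which gave 16 groups, 7 of them with at least 8 genes. The group from ZNF557 to ZNF846 (chr19:7069703-9786160, 15 genes) had an end peak at 66.7% of its genes in both Pol II controls. In the group from ZNF101 to ZNF254 (chr19:19668153-24129968, 37 genes) the share was 32.4% in both, and interior peaks were at 0 genes in all 8 numbered Pol II and Tyr1P libraries. ZNF91, ZNF93, ZNF43 and ZNF257 belong to this group, in which 23 of 37 genes had an end peak in no library. The group from ZNF565 to ZNF573 (chr19:36182060-37779586, 26 genes) stood at 30.8%. The remaining groups had 46.0% (25 genes, ZNF653 to ZNF791), 58.3% (24 genes, ZNF575 to ZNF296), 52.6% (39 genes, ZNF175 to ZNF331) and 57.6% (59 genes, ZNF628 to ZNF446). Ser2P interior peaks with IAA were at 18.9% ± 3.82 (SD, n = 2) of the genes from ZNF101 to ZNF254 and at 53.3% in both libraries of those from ZNF557 to ZNF846. In that first group the Ser2P Control share was 5.41% ± 7.64 (SD, n = 2).

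With IAA, Pol II peaks were still called at most zinc finger genes that had them in Control. The end share was 47.0% ± 3.16 (SD, n = 2) against 50.6% ± 0.287 in Control. The interior share was 9.76% ± 0.575 (SD, n = 2) against 11.4% ± 0.575. The groups did not overlap in either share, and each gave an exact permutation p = 0.333, the smallest that 2 libraries against 2 allow, so no treatment comparison within an antibody can pass 0.05. A gene was called lost with a peak in both Control and neither IAA library, and gained in the reverse case. Pol II end peaks were lost at 3 zinc finger genes, 1.22%, against 3.02% of all genes and 6.06% of other chromosome 19 genes. They were gained at 0, against 0.340% and 0.830%. Of 123 zinc finger genes with a Pol II end peak in both controls, 2.44% lost it, against 5.28% of all and 10.8% of other genes. In all 4 libraries 109 zinc finger genes had an end peak, 44.3%, beside 48.8% of all genes and 41.0% of other chromosome 19 genes.

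The 3 lost genes were called in every other library. ZNF581 (chr19:55635003-55645623, 10621 bp) had Control percentiles of 73.6 and 75.4, with Pol II summits 98 and 72 bp from an end. With IAA the closest ones were 3117 and 2267 bp away, and ZNF581 still had 2 and 3 interior Pol II peaks, as in Control. Its bases covered by Pol II were 1892 and 1746 in Control and 2634 and 2719 with IAA. Starts of ZNF580 (55641002 to 55642097) and the only start listed for ZNF581 (55643649) lie over 1 kb inside this span. The interior peaks and covered bases of ZNF581 can therefore belong to starts of either gene. ZNF428 (chr19:43607224-43619629) had 68.4 and 68.2, and with IAA its closest summits were 10530 and 4546 bp away. ZNF579 (chr19:55576774-55580848) had 46.8 and 57.8, and with IAA its closest summits were 18511 and 18573 bp away. All 3 had end peaks in all 4 Tyr1P, all 4 Ser2P and all 4 unnumbered Pol II libraries. With the unnumbered Control and IAA libraries added to the groups, 0 were lost, and without Pol II IAA replicate 2 the count was 14. Interior Pol II peaks were lost at 3 genes (ZNF333, ZNF358 and ZNF599), 1.22%, against 2.69% of all genes and 4.22% of others, and gained at 0, against 0.742% and 0.967%. Counted over genes with an interior Pol II peak in both controls, 3 of 24 zinc finger genes lost it (12.5%). For all genes this share was 14.3%, near that of zinc finger genes, and for other chromosome 19 genes 19.3%. At ZNF333 the covered bases were 1105 and 1037 in Control and 0 and 275 with IAA. All 3 had an interior Pol II peak in all 4 unnumbered libraries, where 1156 bases of ZNF333 were covered in Control, 1215 in IAA, 1058 in EGF and 1113 in IAA+EGF. The only starts listed for ZNF358 (7516103) and ZNF599 (34773215) lie over 1 kb inside their spans. At ZNF599 (34758073-34807601) the closest Pol II summits in Control lay 15054 and 15055 bp from an end. The interior peaks lost at these genes can thus be peaks at a start. Interior peaks were in all 4 libraries at 20 zinc finger genes, 8.13%, against 12.6% of all genes and 12.6% of others. Outside peaks were gained at 2 (0.813%, against 1.05% and 1.33%), lost at 0 (against 2.29% and 5.06%) and in all 4 libraries at 24 (9.76%, against 9.63% of all and 17.6% of other chromosome 19 genes).

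Tyr1P had few gains or losses. The end share was 52.0% in both IAA libraries against 52.4% ± 0.575 in Control (exact permutation p = 1.0). End peaks were gained at 0 and lost at 0 zinc finger genes, against 0.421% and 1.48% of all genes and 0.913% and 3.07% of other chromosome 19 genes. In all 4 libraries 126 had an end peak (51.2%, against 58.1% of all and 56.8% of other genes). Interior peaks were at 13.0% in both IAA libraries against 15.2% ± 0.862. They were lost at 2 genes, ZNF557 and ZNF440, 0.813%, against 3.19% of all genes and 4.84% of others, and gained at 0, against 0.908% and 1.41%. They were in all 4 libraries at 29 genes (11.8%, against 22.2% and 23.7%). Outside peaks were gained at 2 (0.813%, against 1.39% and 1.83%), lost at 3 (1.22%, against 3.09% and 5.23%) and in all 4 libraries at 30 (12.2%, against 16.9% and 30.8%). The Control percentiles of these interior peaks were low, 23.2 and 19.6 at ZNF557 and 1.6 and 3.0 at ZNF440. With lists limited to the same 30127 highest-ranked peaks the interior difference was 0.

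Ser2P peaks were more numerous at zinc finger genes with IAA, as they were over the whole lists. The end share was 54.9% ± 1.15 (SD, n = 2) with IAA, and in Control 51.2% in replicate 1 and 36.2% in replicate 2. The interior share was 34.1% ± 1.15 (SD, n = 2) with IAA, and in Control 24.4% and 9.35%. The outside share was 38.6% in both IAA libraries, and 30.1% and 11.8% in Control. Both IAA libraries exceeded both controls in each share (exact permutation p = 0.333, the smallest possible). Against Control replicate 1 alone the differences were 3.66, 9.76 and 8.54 points. The lists differ in length, 99001 and 88503 peaks with IAA against 37013 and 15270 in Control. With each list limited to its 15270 highest-ranked peaks the interior share turned to -1.83 points, with 0 zinc finger genes gained and 4 lost, and the outside share to -0.203 points. In these shorter lists 98 and 89 zinc finger genes had an end peak in Control and 96 and 98 with IAA, so the groups overlapped. The larger interior share was thus seen only with lower-ranked peaks included. The cut removes such peaks from the longer lists by design, so it cannot decide whether they changed with IAA.

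End peaks of Ser2P were gained at 13 zinc finger genes, 5.28%, against 6.69% of all genes and 9.54% of other chromosome 19 genes, and lost at 0, against 0.170% and 0.249%. In all 4 libraries 88 had one (35.8%, against 44.0% and 42.7%). Outside peaks were gained at 24 (9.76%, against 12.9% and 11.7%), lost at 0 (against 0.476% and 0.498%) and in all 4 libraries at 28 (11.4%, against 17.4% and 28.0%). By end percentile, ZNF134, ZNF586, ZNF530, ZNF136, ZNF132 and ZNF441 ranked highest. ZNF134 (chr19:57614242-57624724) had percentiles of 88.1 and 85.2 with IAA and no end peak in Control. ZNF586 had 85.1 and 82.6, ZNF530 67.1 and 87.7, and ZNF136 78.9 and 72.6. Of the 6, all but ZNF132 had Tyr1P end peaks in all 4 libraries, so Tyr1P peaks were already called at 5 of them in Control. ZNF134 and ZNF530 have ends 1520 bp apart. At ZNF132, which lies inside the span of ZNF324B, the end peaks with IAA were at 75.3 and 46.8, and Pol II and Tyr1P had no end peak.

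Interior Ser2P peaks were gained at 28 zinc finger genes, 11.4%, against 19.8% of all genes and 17.5% of other chromosome 19 genes, and lost at ZNF45 alone, 0.407%, against 0.155% and 0.000%. In all 4 libraries 22 had one (8.94%, against 14.6% and 18.6%). Counted over genes with no interior peak in either control, 28 of 186 zinc finger genes were gained (15.1%), against 31.0% of all and 27.9% of other genes. Without Control replicate 1 the count was 53, and without Control replicate 2 it was 28 gained and 10 lost. ZNF460, ZNF57, ZNF714, ZNF264, ZNF616 and ZNF546 ranked highest. ZNF264, whose promoter is printed above, had 4 interior peaks in each IAA library and 0 in each control, and its covered bases went from 342 and 276 in Control to 2287 and 1863 with IAA. At ZNF460 the interior peak had percentiles of 74.5 and 56.7 with IAA. At ZNF45 the interior peaks of the controls stood at 58.7 and 6.8.

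By bases covered with Ser2P and IAA, ZNF544 (chr19:58228914-58277455) led with 4928 and 3459 bp, against 1448 and 211 bp in Control. It had 9 and 6 interior peaks with IAA and 1 and 0 in Control. ZNF581 had 4011 and 3860 bp with IAA and 3109 and 2112 bp in Control, and its highest interior Ser2P peak stood at percentile 98.5 to 99.7 in all 4 libraries. ZNF565, ZNF574, ZNF324B and ZNF600 followed. Interior peaks in overlapping genes belong to no gene in particular. The span of ZNF581 holds the starts of ZNF580. The top interior peak of ZNF600 has the same percentile as the end peak of ZNF28 in each library, because ZNF28 lies inside the span of ZNF600.

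Interior Ser2P peaks were more frequent in genes with end peaks. Among zinc finger genes of 10 to 50 kb with an end peak in all 16 libraries (68 genes), 22.1% ± 20.8 (SD, n = 2) had an interior Ser2P peak in Control and 52.9% ± 2.08 (SD, n = 2) with IAA. Among those with an end peak in none (75 genes), the shares were 5.33% ± 1.89 (SD, n = 2) and 6.67% ± 1.89 (SD, n = 2). Other chromosome 19 genes of the same lengths with an end peak in all 16 (188 genes) had 30.6% ± 13.9 (SD, n = 2) and 77.1% ± 1.505 (SD, n = 2). Other chromosome 19 genes with an end peak in none (121 genes) had 9.92% ± 5.84 (SD, n = 2) and 25.2% ± 0.584 (SD, n = 2). The end class uses the Ser2P libraries as well, so these shares are a description.

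Along the gene, Pol II summits were most frequent at the start. For 210 zinc finger genes of at least 5 kb with known strand, a Pol II summit lay within 1 kb of the start at 50% ± 0.673 (SD, n = 2) in Control and 46.4% ± 3.70 (SD, n = 2) with IAA. From 1 to 5 kb downstream of the far end it was 9.05% in both controls and 8.81% ± 1.01 (SD, n = 2) with IAA. Within 1 kb of the far end the shares were 1.90% in both controls and 1.19% ± 0.337 (SD, n = 2). The far end thus held Pol II summits at few zinc finger genes, against 14.5% ± 3.33 (SD, n = 2) of 785 other chromosome 19 genes in Control. A summit there can belong to a neighbouring gene, and isolated genes were not compared in this respect. Ser2P summits within 1 kb of the far end were at 11.2% ± 8.42 (SD, n = 2) in Control and 19.5% ± 2.02 (SD, n = 2) with IAA. From 1 to 5 kb downstream Ser2P summits were at 16.7% ± 12.1 (SD, n = 2) and at 33.8% in both IAA libraries. In the last of 10 equal parts of the interior they were at 3.81% ± 4.04 (SD, n = 2) and 11.7% ± 1.01 (SD, n = 2). Downstream of the far end the Ser2P share in Control replicate 1 lay between that of replicate 2 and those with IAA.

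**Figure D4:**
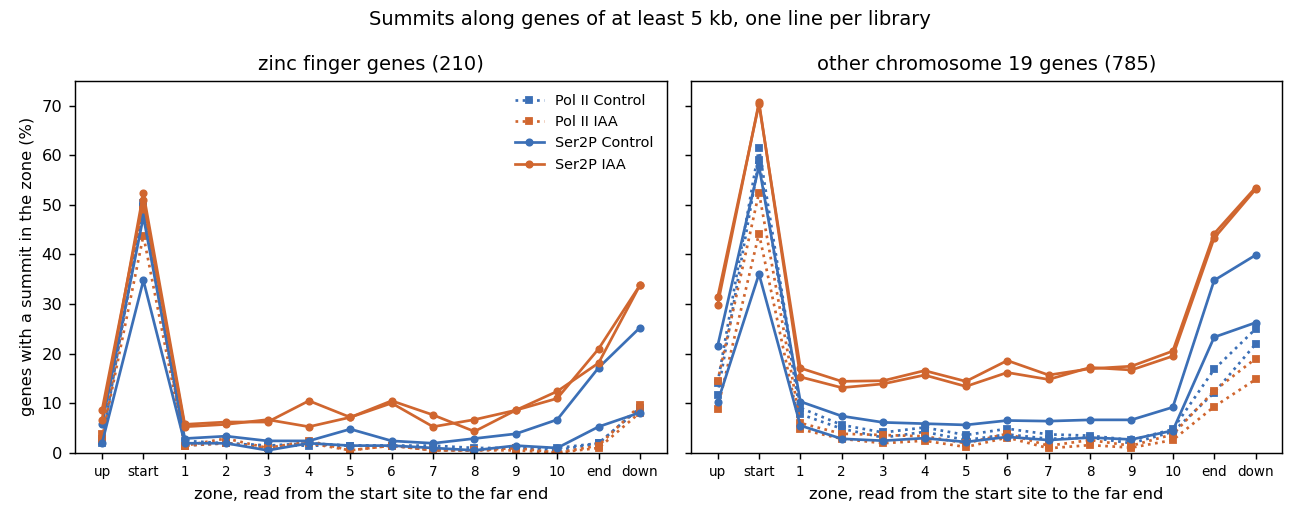
Percent of genes with a Pol II (dotted) or Ser2P (solid) summit in each zone (vertical axis), read from 5 kb upstream through the start, 10 equal parts of the interior and the far end to 5 kb downstream (horizontal axis), 1 line per library, for 210 zinc finger and 785 other genes. In both panels Pol II is highest at the start, and Ser2P has a further rise at and beyond the far end, lower at zinc finger genes (33.8% downstream with IAA) than at others (53.3%).

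The gap to other genes was compared between antibodies over 4 libraries each. The gap in end share was more negative in Ser2P than in Pol II by -9.22 points (exact permutation p = 0.0571) and in Tyr1P than in Pol II by -5.61 points (p = 0.0571 in the same exact test). The gap in interior share differed by -5.93 points for Ser2P (exact permutation p = 0.229) and -7.37 points for Tyr1P (exact permutation p = 0.0286, adjusted p = 0.137). None passed 0.05 after adjustment. With all lists limited to 15270 peaks the end share difference of Tyr1P turned to 0.901 points.

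A pair of features of the end peaks differed between Control and IAA in the same direction for all 3 antibodies, in comparisons chosen after the data were seen. The first was the rank of the end peaks relative to other chromosome 19 genes, taken as the median percentile of zinc finger genes minus that of other genes. For Pol II it was -5.70 and -2.02 points in Control and 7.57 and 7.29 with IAA. For Tyr1P it was 1.95 and 4.53 in Control and 12.2 and 10.5 with IAA. For Ser2P it was -2.28 and -24.2 in Control and 1.29 and 0.797 with IAA. Within each antibody both IAA libraries lay above both controls. The labels do not say whether the 3 antibodies were used on the same chromatin. The exact tests within antibodies, here and for the summit position below, count them as independent. If chromatin was shared, these comparisons rest on 2 libraries against 2. Averaged over antibodies the difference was 11.2 points (exact permutation within antibodies p = 0.00926, the smallest of 216 arrangements, adjusted p = 0.0231 over 5 added tests). It was 7.58 points without Ser2P Control replicate 2, and 11.2 points with p = 0.0556 without Ser2P IAA replicate 1, by the same exact test. The percentiles come from lists of different lengths, most of all for Ser2P, where with IAA the medians of both gene sets were near the top, 90.2 ± 0.954 (SD, n = 2) for zinc finger genes and 89.1 ± 0.606 (SD, n = 2) for other genes. With percentiles taken anew within the 15270 highest-ranked peaks of every list, the mean gap went from -10.5 in Control to 7.04 with IAA for Pol II, from 0.720 to 11.8 for Tyr1P and from -17.8 to 0.495 for Ser2P. The difference averaged over antibodies was then 15.7 points (exact permutation within antibodies p = 0.00926). Shortening a list also drops genes, and 89 to 124 zinc finger genes then entered the medians. In the full Pol II and Tyr1P lists the median of other genes was lower with IAA, 64.1 ± 2.64 (SD, n = 2) against 67.4 ± 3.76 (SD, n = 2) and 70.8 ± 1.13 (SD, n = 2) against 76.3 ± 0.0908 (SD, n = 2). That of zinc finger genes was higher, 71.5 ± 2.44 (SD, n = 2) against 63.5 ± 6.36 (SD, n = 2) and 82.1 ± 2.29 (SD, n = 2) against 79.5 ± 1.73 (SD, n = 2). Over the 12 libraries without regard to treatment the rank gap was 0.992 points (exact permutation p = 0.754).

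The second was the position of the summit at the start site. For Pol II the median summit lay 54 and 56 bp after the start in Control and 89 and 87 bp with IAA. For Tyr1P it lay 46 and 49 bp after it in Control and 77 bp in both IAA libraries. For Ser2P it lay 44 and 35.5 bp after it in Control and 63 and 60.5 bp with IAA. Within each antibody both IAA libraries thus had summits further downstream than both controls. The medians rest on 90 to 130 genes with known strand and a summit near the start. The mean difference was 28.2 bp (exact permutation p = 0.00926, adjusted p = 0.0231), and 26.8 to 29.6 bp with any library left out. Other chromosome 19 genes differed in the same direction, by 31.5, 22.8 and 12.8 bp for the 3 antibodies. The difference between zinc finger and other genes was 5.83 bp (exact permutation p = 0.0741), so the difference was not shown to be particular to zinc finger genes. With a 500 bp window it was 7.33 bp (p = 0.0463 in the same exact test, not adjusted). With IAA the quartiles in Pol II replicate 2 ran from -110.5 to 150.25 bp relative to the start, against 29.5 to 85.5 bp in Control replicate 2. In end share and interior share the gap to other genes showed no common difference with IAA (0.0200 points, exact permutation p = 0.991, and -0.527 points, p = 0.861 by the same exact test).

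**Figure D5:**
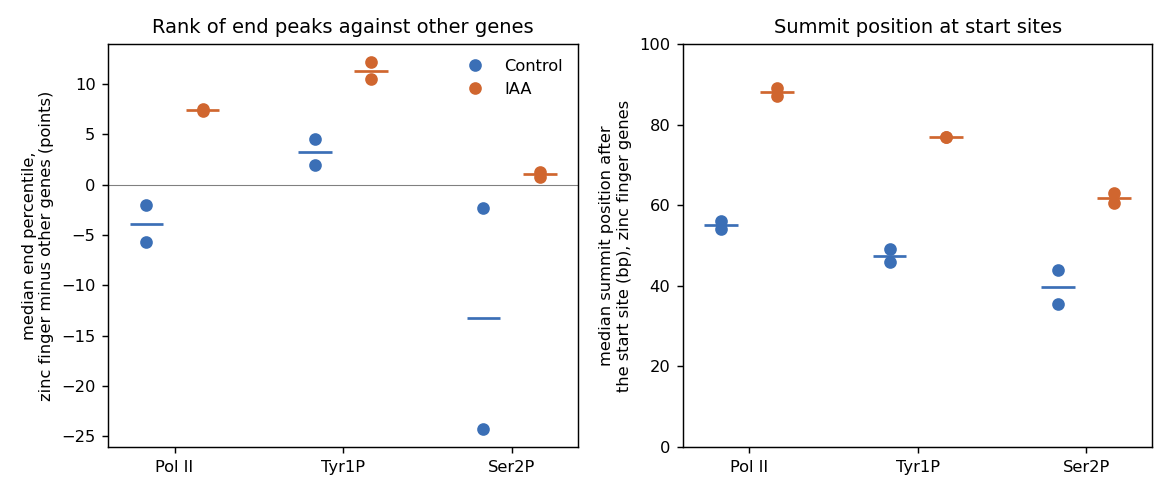
Median end percentile of zinc finger genes minus that of other chromosome 19 genes, in points, from full lists that differ in length (left), and median summit position after the start of zinc finger genes, in bp (right), by antibody, 1 point per numbered library and a bar at the mean, for Control (blue) and IAA (orange). In both panels both IAA libraries lie above both controls for each antibody, with Ser2P Control replicate 2 at -24.2 points.

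The 4 unnumbered Pol II libraries, 1 per title, have no replicate and were not tested. For the titles IAA and EGF the deposited names give the opposite treatment, so they are called by title. The median summit lay 45 bp after the start in Control, 47 in IAA, 70.5 in EGF and 64 in IAA+EGF. The rank gap to other genes was 4.15, 1.81, 10.6 and 7.52 points in the same order. In both measures the library titled IAA lay near Control and the library titled EGF near IAA+EGF. End peaks hardly differed between the titles. Between Control and IAA only ZNF302 had an end peak in the second alone and only ZNF432 and ZNF444 in the first alone, 0.407% and 0.813% of zinc finger genes against 1.01% and 1.62% of all genes. Between Control and EGF the counts were 1 (0.407%) and 4 (1.63%), against 0.826% and 2.63% of all genes.

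Of 20 partner genes of the same repression pathway, 12 had an end peak in all 16 libraries, as did 37.5% of all genes, among them TRIM28 and DNMT1, and UHRF1 had one in 0 but interior peaks in all 12 numbered libraries. Pol II end peaks were lost at 1 of the 20, against 3.02% of all genes. It was SUV39H1, a histone H3 lysine 9 methyltransferase, which also lost its Tyr1P end peak and gained an interior peak of both. A single summit crossing the 1 kb limit would give both calls, and this was not tested. Ser2P interior peaks were gained at 8 of 20 (KDM1A, SUV39H2, CHD4, CBX1, DNMT1, MORC2, CBX3 and ATRX) and lost at 0, against the 19.8% and 0.155% of all genes. SETDB1 had an end peak in 14 libraries, with Pol II percentiles of 42.5 and 59.6 in Control and none and 50.3 with IAA. A further 19 zinc finger genes of chromosome 19 under other names are counted in this report among the other chromosome 19 genes. Of these 19, 4 (ZFP14, ZFP30, ZFP36 and ZSCAN22) had an end peak in all 16 libraries, as did 37.5% of all genes. An end peak was called in 0 libraries at 12 of them, against 28.1% of all genes, and these 12 include the imprinted genes PEG3 and ZIM2. Only ZBTB45 of the 19 lost its Pol II end peak, against 3.02% of all genes. Only ZSCAN22 gained a Ser2P interior peak, against 19.8% of all genes.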

How the data were processed

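Peak lists of 16 immunoprecipitated libraries (3 antibodies) and 2 inputs were analysed. MACS2 2.2.7.1, Bowtie2 2.3.4.1, deepTools 3.5.1, Trim Galore 0.6.6, Picard 2.25.7 and build hg38 are named in the submitters' processing notes. Their options, and any use of inputs in peak calling, count as not given in the sources used here. Each list as deposited holds a summit, a fold ratio, −log10 values of p and of q, and a score for every peak, per the file columns that the authors deposited. Read totals were estimated by solving the deposited fold and −log10 p for fragments and background, which matched whole numbers within a tolerance of 0.0002 for at least 99.9% of the peaks used. Percentiles rank the deposited −log10 q within a list.

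Peaks sharing at least 1 bp with an input peak were removed. One marker gene is not reported here. Genes and promoter windows came from RefSeq (GRCh38.p14), with strand for 216 of 246 zinc finger genes. Windows of 1 kb at ends and 5 kb outside were used, and interiors in genes of at least 2 kb. Groups followed titles. Two-sided exact permutation tests over libraries (Python 3.11.15, numpy 2.4.6, scipy 1.17.1) were adjusted by Benjamini-Hochberg over 24 planned and 5 added tests. Call rules were tested on simulated presence. Genes named by rule were up to 6 gained or lost per antibody, zone and direction, 6 with the strongest end peaks, the 4 longest without peaks, 6 with most Ser2P-covered bases, 10 listed by name, 20 partners and other zinc finger names. Alternatives were lists of equal length, a −log10 q of at least 5, other windows, overlap in place of summits, input peaks kept, isolated genes, 10 to 50 kb genes, left-out libraries, the replicate block and added unnumbered libraries; only genes with end peaks in all 12 numbered libraries, and percentiles taken anew within lists of equal length, were later additions. The planned lists of equal length kept the percentiles of full lists. The gene set and lists were chosen with earlier results of these data known.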

Additional observations from a re-analysis of the deposited data

Results flagged for a closer look

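3 results were marked because the 2 IAA libraries of one antibody lay on the opposite side of their controls from those of another. The IAA minus Control difference in end share of zinc finger genes was larger in Ser2P (11.2 points) than in Pol II (-3.66 points) by 14.8 points. That in interior share was larger in Ser2P (17.3 points) than in Pol II (-1.63 points) by 18.9 points and than in Tyr1P (-2.24 points) by 19.5 points. Permuting the labels within both antibodies gave an exact permutation p = 0.0556 for each, the smallest of 36 arrangements, so none passed 0.05. The Ser2P lists were longer with IAA (99001 and 88503 peaks) than in Control (37013 and 15270). With lists of equal length the Ser2P interior difference was -1.83 points. Ser2P end peaks were then at 98 and 89 zinc finger genes in Control and at 96 and 98 with IAA. That cut removes lower-ranked peaks by design, so it cannot decide what part list length has in these differences. No group had 4 libraries, so no library was checked against its own group.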

How the results depend on the processing

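Among the recomputed values, 487 kept direction and side of the threshold, 36 reversed, 20 counts moved by over 1.5 times, 10 newly passed the threshold and 10 no longer passed it. Where no value shows why, the cause was not tested. The interior, outside and covered-length gaps kept direction and p under 0.05 in each alternative.

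With lists of equal length, Pol II end peaks were gained at 1 and lost at 5 genes, the Tyr1P IAA minus Control differences were 0.203 (end), 0.0 (interior) and 2.03 points (outside) and 0.0307 (covered length), those of Ser2P -1.83 (interior) and -0.203 (outside), with interior calls of 0 gained and 4 lost. There the rank gap was -1.57 with full-list percentiles and -1.38 with percentiles taken anew, the end gap difference -7.29 for Ser2P (exact permutation p = 0.0286) and 0.901 for Tyr1P, the interior gap difference -4.91 (exact permutation p = 0.0286) and -0.756, and the IAA minus Control gap differences 4.53 (end, exact permutation p = 0.0463) and 0.965 (interior). With −log10 q of at least 5, covered length was -0.00527 (Pol II) and 0.00464 (Tyr1P), Tyr1P outside share 0.610, end peaks lost 5 (Pol II) and 1 (Tyr1P), Ser2P interior lost 0, gap differences -12.3 (end, Ser2P), -7.28 (interior, Tyr1P) and 0.906 (interior, IAA minus Control). With a 500 bp window, 5 Pol II end peaks were lost, the Tyr1P interior gap difference was -7.96 and the summit offset gap 7.33 bp (exact permutation p = 0.0463). With 2 kb, Pol II end gained was 1, Ser2P interior lost 0, Tyr1P outside share 0.0, and the end gap differences -9.59 (Ser2P) and -6.72 (Tyr1P). By overlap the Ser2P end gap difference was -10.1. Among isolated genes Pol II outside share was 0.278 and the end gap 1.93; in 10 to 50 kb genes Tyr1P covered length was 0.00845; over genes with end peaks in all 12 libraries the rank gap was -1.90. Adding unnumbered libraries gave a Pol II outside share of 0.0 and 0 lost.

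Without 1 library each, the ranges were: Pol II outside share -1.63 to 1.22 and covered length -0.0660 to 0.112, end gained 0 to 1 and lost 3 to 14; Tyr1P end share -0.813 to 0.0, outside share -1.63 to 1.22, covered length -0.0613 to 0.0305, end gained 0 to 1 and lost 0 to 2; Ser2P interior gained 28 to 53 and lost 1 to 10; rank gap -0.0242 to 3.29; end gap difference -11.2 to -7.53 (Ser2P) and -7.20 to -3.92 (Tyr1P); Tyr1P interior gap difference -8.67 to -5.73; and IAA minus Control gaps -0.576 to 0.616 (end), -1.29 to 0.232 (interior) and 7.58 to 14.9 (rank).

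Replicate numbers did not pair libraries (r across genes of same-numbered deviations 0.0818, -0.0408 and 0.0210). With the replicate block the Tyr1P interior gap difference of -7.37 had an exact permutation p = 0.125, and no other call changed; the block could not be fitted for the 5 gaps over 12 libraries. Depth limits the shallow lists: an absent peak in Pol II Control replicate 1 or Ser2P Control replicate 2 does not show absent polymerase.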
